A study of Mus musculus with 2 samples.

Results

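Cfap53, Gm19951, Krt83 and Dapl1 are 4 of the 31253 genes in the count files, taken by symbol because earlier work on these 2 libraries had found them at low levels in wild-type cells and higher in the mutant. The values that chose them are their levels in Treg-like cells, so their difference in Foxp3-positive cells is described here and not tested. They were followed through 6 stages of thymocyte development to see at which stage each appears and whether the same cells hold several.

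The data are UMI counts (unique molecular identifiers, 1 per captured RNA molecule) made with v3.1 of the 3′ kit of 10x Genomics from mouse thymocytes bound by anti-CD25 beads. The WT group is 1 library from wild-type mice and the cKO group is 1 library from mice of the genotype SETDBf/fCD4-Cre. The age, sex and number of mice are not given, nor whether the WT mice carried Cre or the floxed allele. There are no replicates, so no test between the genotypes is possible, and every interval below is a 95% interval for counting error only. After filtering, 6989 WT cells had a median of 7700 UMIs and 7372 cKO cells a median of 4653. The libraries share 16 barcodes, 13 of them among these cells.

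CD4-Cre is driven by regulatory elements of Cd4, which is expressed from the end of the double-negative stage on, so every T cell lineage that passes through the CD4 and CD8 double-positive stage is affected, not Treg cells alone. SETDB1 and SETDB2 are related enzymes that methylate lysine 9 of histone H3. SETDB1 works with ATF7IP and is guided by TRIM28 to silence retroviral elements and some genes. The genotype does not say which of them is floxed. Setdb1 gave 56 UMIs in WT and 59 in cKO Foxp3-positive cells (20.7 and 25.3 CPM, the gene's UMIs over 1e6 UMIs summed in the gate), but a 3′ tag outside a deleted exon does not check a deletion. Developing T cells that bind self antigen strongly turn on agonist-signalling genes such as Nr4a1, and some then express Foxp3 and become Treg cells. Cells about to leave the thymus express Klf2 and its target S1pr1, the receptor that guides exit.

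Stages were set by marker gates on each cell. The double-negative (DN) gate took 2968 WT and 2232 cKO cells without Cd4, Cd8a and Cd8b1 and with more UMIs of Ptcra, Notch1 and Kit together than of the TCR gene Trac, and the double-positive (DP) gate 2926 and 3967 cells. The post-selection gate (Cd69 or Ccr7 with Cd5 or Itm2a) held 76 and 128 cells. The agonist gate, with at least 3 of 8 genes of strong TCR signalling and no Foxp3, held 395 and 419, and the Foxp3-positive gate 331 and 327. The mature gate, set by genes of maturation and exit such as Klf2 and S1pr1, held 48 and 53. The gates' markers mostly followed their names: the summed level of the 10 Treg genes was 3661 CPM in WT and 3459 CPM in cKO Foxp3-positive cells, against 780 and 754 CPM in DN cells, where Foxp3 is 0 by the gate's construction. Median depth in WT and cKO was 10682 and 11491 UMIs in DN cells, 2736 and 2397 in DP cells, 8097 and 6866 in agonist cells and 5872 and 5288 in Foxp3-positive cells. The agonist gate is mixed in maturity, since S1pr1 or Klf2 was found in 226 of 395 WT cells there and in 266 of 419 cKO cells. A single Foxp3 UMI placed 109 of the 331 WT and 126 of the 327 cKO cells in the Foxp3-positive gate.

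The name "near-silent" fits Cfap53 and Gm19951 in every WT gate, where they reached at most 2.86 CPM, but not Krt83 and Dapl1. WT Foxp3-positive cells held Krt83 at 7.77 CPM and Dapl1 at 8.88 CPM. A gene counted as switched on when it had at least 20 UMIs over both libraries in a gate, lay under 5 CPM in WT and was at least 4-fold higher in cKO on the scale log2 (CPM + 5). In the Foxp3-positive gate 2 of the 4 members passed, where 0.0748% of the 9364 genes measured did, that is 7 genes. The count of members past the rule was 0 in the DN gate (0.0159% of genes), 0 in the DP gate (0.0%), 0 in the post-selection gate (0.0274%), 2 in the agonist gate (0.0192%) and 1, Gm19951, in the mature gate (0.105%). As the members came from the Foxp3-positive contrast, nothing is read from their count there. All 4 were at least 4-fold higher when the limit in WT was dropped, as were 0.107% of genes, or 10 in all.

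Gm19951, annotated as a long intergenic non-coding RNA of chromosome 12 (GENCODE vM21, plus strand), gave the broadest signal. WT Foxp3-positive cells held 3 UMIs in 3 of 331 cells, and cKO Foxp3-positive cells held 446 UMIs in 130 of 327 cells. That is 1.11 against 191 CPM, a ratio of 172 (58.6 to 840). No WT cell of any gate held more than 1 UMI of it, whereas 35 cKO Foxp3-positive cells held at least 5. In the agonist gate 2 WT UMIs stood against 285 in cKO (52.7 CPM), and in the mature gate 0 against 34 (52.0 CPM, at least 14.2-fold higher with 3 counts over the WT gate as the floor). Of the 11 mature cells with it, 3 held Cd4 without Cd8 (7 UMIs) and 1 held Cd8 without Cd4 (6 UMIs), and the others fell in neither class. In the agonist gate Cfap53 and Gm19951 were the only genes past the switched-on rule among 10404.

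Cfap53 encodes a cilia- and flagella-associated protein, needed for motile cilia and left-right patterning of the body. It lies on chromosome 18. It gave 1 UMI in WT Foxp3-positive cells and 182 in cKO Foxp3-positive cells, 0.370 against 78.1 CPM and a ratio of 211 (37.4 to 8386). These 182 UMIs came from 22 cells, and the 5 highest cells gave 60.4% of them, whereas the 5 highest gave 13.0% of the Gm19951 UMIs. In the agonist gate it had no UMI in 395 WT cells and 93 in 12 of 419 cKO cells, at least 34.2-fold higher. The signal was thus high in few cells, up to 30 UMIs in a cell of either gate.

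Krt83 encodes a type II keratin of hair and lies on chromosome 15. WT Foxp3-positive cells held 21 UMIs in 10 cells and cKO Foxp3-positive cells 128 in 30 cells, 7.77 against 55.0 CPM (ratio 7.07, 4.44 to 11.8). The agonist gate held 16 UMIs in 9 WT cells and 97 in 32 cKO cells (ratio 6.69, 3.92 to 12.2). Krt83 had a source in WT where no difference beyond counting error was seen. Among Foxp3-positive cells without S1pr1 and Klf2, 16 UMIs lay in 5 of 36 WT cells and 8 UMIs in 2 of 16 cKO cells, a ratio of 0.829 (0.307 to 2.05). Among those with S1pr1 or Klf2, 5 UMIs lay in 5 of 295 WT cells and 120 in 28 of 311 cKO cells, a ratio of 26.8 (11.2 to 84.0). The agonist gate divided alike: 12 WT and 6 cKO UMIs without these egress genes, and 4 and 91 UMIs with them. In both gates the difference between the libraries in Krt83 thus lay in cells with egress genes. This did not hold in DN cells, where those without S1pr1 and Klf2 held 0 UMIs in WT and 18 in cKO (at least 8.68-fold higher, at 0.717 CPM in cKO) and those with them 1 and 8.

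Dapl1, death-associated protein-like 1, was first described in differentiating epithelium and lies on chromosome 2. It gave 24 UMIs in 9 WT and 147 UMIs in 29 cKO Foxp3-positive cells, 8.88 against 63.1 CPM (ratio 7.11, 4.60 to 11.4). The agonist gate held 15 UMIs in 5 WT cells and 115 in 18 cKO cells (ratio 8.46, 4.92 to 15.6). All 115 of the latter lay in cells with S1pr1 or Klf2. None of the 153 cKO agonist cells without these genes held Dapl1. In WT 4 of 5 agonist and 9 of 9 Foxp3-positive cells with Dapl1 also held S1pr1 or Klf2. So did 226 of all 395 WT agonist and 295 of all 331 WT Foxp3-positive cells, and nothing is read from these WT counts. Unlike the cKO agonist cells, the small group of 16 cKO Foxp3-positive cells without S1pr1 and Klf2 held Dapl1, with 12 UMIs in 3 cells. With the stricter cell filter the log2 fold in the agonist gate was 0.96 in place of 1.81.

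All 4 members had more UMIs in cKO in both the agonist and the Foxp3-positive gate, and the promoters of Gm19951 and Dapl1 are shown here (RefSeq, GRCm38.p6, plus strand, 250 bases before to 50 after the start). Gm19951 is at chr12:99642846-99643145 and Dapl1 at chr2:59484403-59484702. Capitals mark every match of 6 motifs searched on both strands, which do not overlap in these windows.
Gm19951: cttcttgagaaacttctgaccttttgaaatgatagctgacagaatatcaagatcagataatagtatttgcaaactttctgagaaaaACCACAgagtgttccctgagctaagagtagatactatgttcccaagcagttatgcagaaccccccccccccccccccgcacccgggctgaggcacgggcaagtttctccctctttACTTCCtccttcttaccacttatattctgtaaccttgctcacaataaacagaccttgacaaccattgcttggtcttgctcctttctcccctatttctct
Dapl1: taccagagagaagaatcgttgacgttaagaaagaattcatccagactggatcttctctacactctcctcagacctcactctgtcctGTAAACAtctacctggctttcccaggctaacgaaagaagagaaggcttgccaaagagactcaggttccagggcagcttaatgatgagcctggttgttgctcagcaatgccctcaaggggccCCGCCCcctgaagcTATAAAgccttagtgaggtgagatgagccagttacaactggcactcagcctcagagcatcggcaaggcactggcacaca
In Gm19951 the capitals are TGTGGT (the RUNX core) at -164 and GGAAGT (an ETS core) at -49, both on the minus strand and so printed as their complement. In Dapl1 they are TGTTTAC (forkhead) at -164 and GGGCGG (a GC box) at -43 on the minus strand, and TATAAA at -29 on the plus strand. TGACGTCA occurs in neither. Of 27025 promoters in the table, 16.9% held TGTGGT, 24.1% GGAAGT, 3.55% TGTTTAC, 35.9% GGGCGG, 14.2% TATAAA and 1.88% TGACGTCA. The number of CG was 3 in Gm19951 and 5 in Dapl1, where the median promoter had 7, and no motif was found in both windows. Neither window shares a run of 30 bases with another promoter in the table. The last 500 bases of the members' transcripts share no identical run of 50 bases with an annotated transcript of another gene (GENCODE vM21). Copies with mismatches, or outside annotated transcripts, were not searched for.

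The stage at which the genes appear was read from shares of positive cells after each cell was thinned at random to 2000 UMIs. Thinning makes depth equal and leaves out shallower cells, 489 WT and 1136 cKO cells of the DP gate among them. In cKO DN cells the share was 0.179% for Cfap53 and Gm19951, 0.134% for Krt83 and 0 of 2232 for Dapl1, and in DP cells it was at most 0.141%. Unthinned levels in both gates were at most 0.750 CPM in either library. The early stages thus lay near 0 in both libraries, though not at equal counts: DN cells held 2 Cfap53 UMIs in WT and 24 in cKO (ratio 15.4, 3.84 to 135), 3 and 19 of Gm19951 (8.15, 2.40 to 43.0) and 1 and 26 of Krt83 (33.5, 5.50 to 1372). Of the 24 Cfap53 UMIs, 20 lay in the 444 cKO DN cells that held S1pr1 or Klf2, 14 of them in 1 cell.

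The small post-selection gate took only cells left over by the agonist and mature gates. Klf2 was at 368 CPM in cKO agonist cells and at 39.0 CPM in cKO cells of this gate. No member lay above counting error in it. Cfap53 gave 9 UMIs there in cKO, all in 1 cell, Krt83 3, Gm19951 1 and Dapl1 0, at 128 cells. In the agonist gate 12.4% (9.38 to 16.0) of cKO cells held Gm19951, against 0 of 390 WT cells. By the rule used, a gate counts when its cKO interval lies above those of WT in that gate and of cKO DN cells. The agonist gate was the first to count for Gm19951, and the Foxp3-positive and mature gates counted too. The agonist gate can hold Treg cells whose Foxp3 was not captured, since 126 of the 327 cKO Foxp3-positive cells held just 1 Foxp3 UMI. With at least 2 Foxp3 UMIs required for the Foxp3-positive gate, the agonist share of Gm19951 was 15.4%. The part of such cells in the agonist result was not tested. After thinning Krt83 counted in the agonist gate only (4.14%, 2.43 to 6.54, against 0.513%, 0.0622 to 1.84), since in Foxp3-positive cells its interval in WT reached 3.15% and overlapped that of cKO. Cfap53 and Dapl1 counted first in the Foxp3-positive gate. For Cfap53, Gm19951 and Krt83 the rule gave another answer without thinning. It sets the DN gate against WT alone, and Gm19951 and Krt83 then counted there already, at low shares. Gm19951 was in 0.627% (0.343 to 1.05) of cKO DN cells against 0.101% (0.0208 to 0.295) of WT DN cells. Krt83 was in 0.582% (0.31 to 0.994) against 0.0337% (up to 0.188). Cfap53 then counted in the agonist gate too, with 2.86% (1.49 to 4.95) of cKO cells against 0 of 395 WT cells (up to 0.9295) and 0.358% (0.155 to 0.705) of cKO DN cells. Krt83 then counted in Foxp3-positive cells too, with 9.17% (6.28 to 12.8) in cKO against 3.02% (1.46 to 5.49) in WT. When a positive cell needed 2 UMIs after thinning, the agonist share of Krt83 was 0.73% in place of 4.14% and that of Gm19951 6.08% in place of 12.4%.

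**Figure D1:**
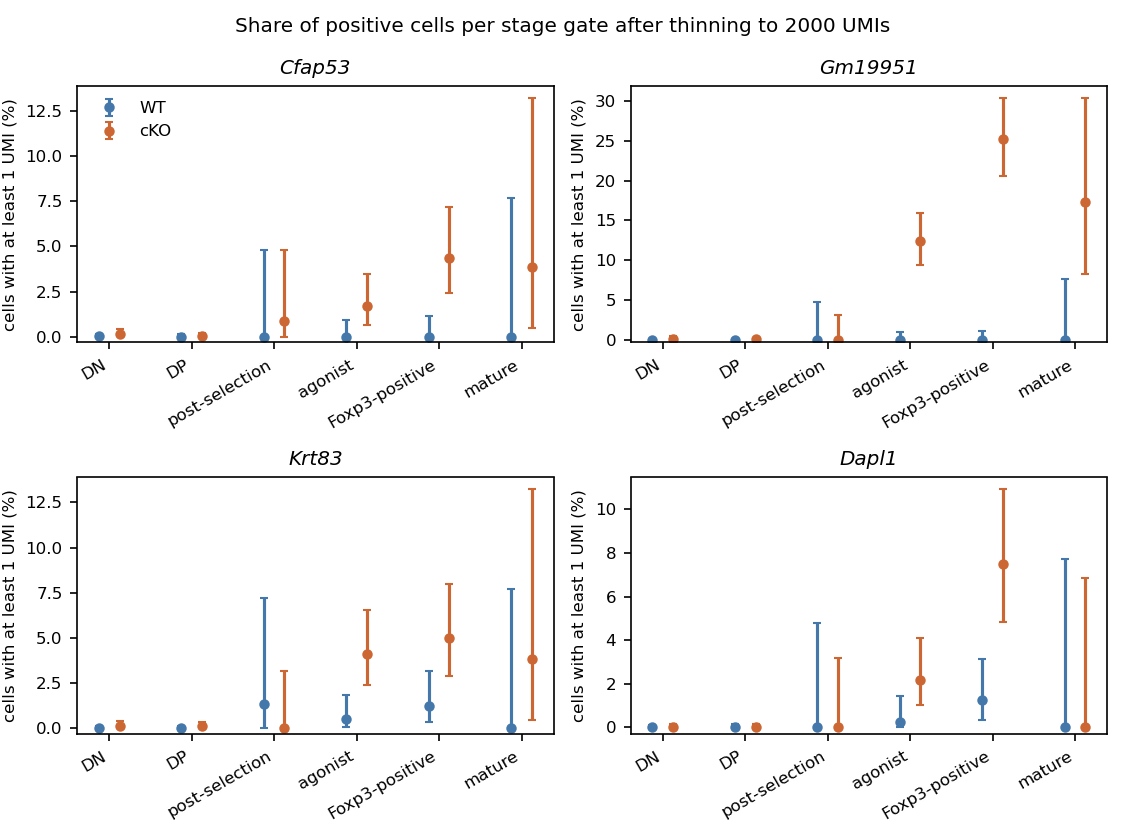
Share of cells with at least 1 UMI of each gene per stage gate (percent, after thinning to 2000 UMIs), in WT (blue) and cKO (orange), 1 library each; bars are 95% exact binomial intervals. Gm19951 reaches 25.2% of cKO Foxp3-positive cells and 12.4% of cKO agonist cells, and DN and DP cells lie near 0 in both libraries.

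In Foxp3-positive cKO cells the thinned shares were 25.2% for Gm19951 (20.6 to 30.4), 7.48% for Dapl1 (4.85 to 10.9), 4.98% for Krt83 (2.88 to 7.97) and 4.36% for Cfap53 (2.40 to 7.21). The last 3 have overlapping intervals and cannot be ordered. At this depth none of 322 WT cells had a UMI of Gm19951 or Cfap53 (3 counts would be a share of 0.932%), and 4 each had Krt83 and Dapl1. Without thinning, 3 of 331 WT cells had Gm19951 and 1 had Cfap53, so the genes are not absent in WT. Within cKO the Foxp3-positive share was 2.03 times that of agonist cells for Gm19951 (1.42 to 2.95) and 3.41 times for Dapl1 (1.53 to 8.35). For Cfap53 it was 2.56 times (0.967 to 7.497), an interval that includes 1, but without thinning 2.35 times (1.11 to 5.21), which does not. Among cells with S1pr1 or Klf2 the ratios were 1.38 for Gm19951 (0.951 to 2.01) and 1.99 for Dapl1 (0.874 to 4.94), and both intervals then included 1. Without thinning the ratio among these cells was 1.41 for Gm19951 (1.055 to 1.897), which excludes 1, and 1.235 for Dapl1 (0.652 to 2.39). As a background for free RNA, the DN gate is above, and the B gate of 18 cKO cells held no Cfap53, 2 Gm19951 (11.5 CPM), 1 Krt83 (5.76 CPM) and 7 Dapl1 UMIs. These 7, in 2 cells, are 40.4 CPM, above the 21.3 CPM of Dapl1 in cKO agonist cells and below the 63.1 CPM in Foxp3-positive cells. That gate also held 2 Foxp3 and 32 Cd8a UMIs, so it is not free of T cell RNA.

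**Figure D2:**
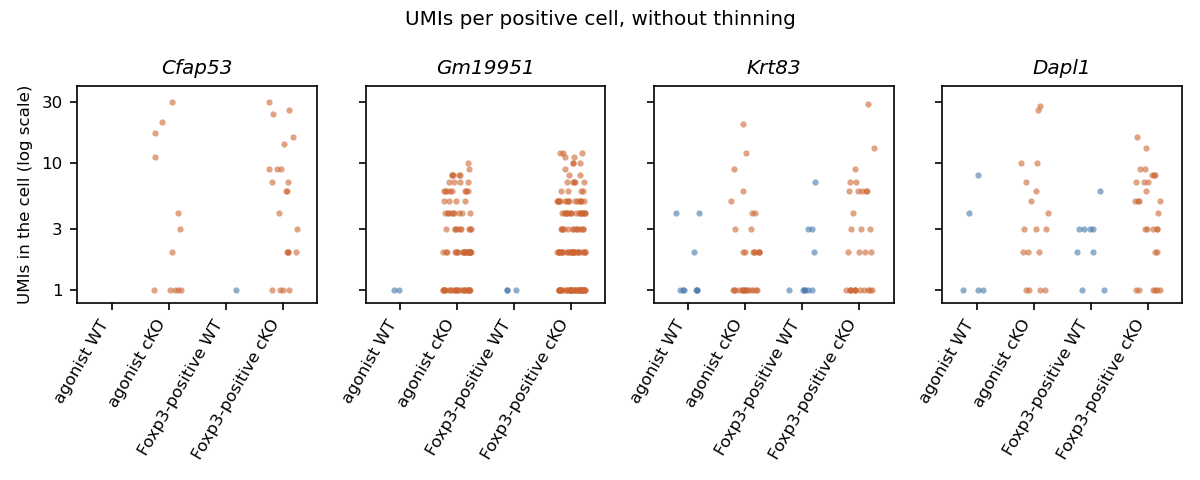
UMIs of each gene in every cell that holds it (log scale, without thinning) in the agonist and Foxp3-positive gates of WT (blue) and cKO (orange). Gm19951 has many cKO cells with few UMIs each, and Cfap53 has few cKO cells with up to 30.

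Egress genes moved with 3 of the members within the agonist gate of the cKO library. Of agonist cells with S1pr1 or Klf2, 18.7% held Gm19951 after thinning, against 1.34% of those without, a ratio of 13.9 (3.66 to 118). For Krt83 the values were 6.11% and 0.671% (ratio 9.10, 1.41 to 382), for Dapl1 3.44% and 0 of 149 cells, and for Cfap53 2.29% and 0.671% (ratio 3.41, 0.414 to 157). For Cfap53 the interval includes 1. No such difference was detectable in cKO Foxp3-positive cells, of which only 14 lacked both egress genes after thinning. The shares with and without them were 25.7% and 14.3% for Gm19951 (ratio 1.801, 0.482 to 15.1), 3.91% and 14.3% for Cfap53 (0.274, 0.061 to 2.52), 4.89% and 7.14% for Krt83 (0.684, 0.105 to 28.8) and 6.84% and 21.4% for Dapl1 (0.319, 0.095 to 1.67). The ratio lay below 1 for 3 of the 4 members, and every interval includes 1.

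The same cKO cells held several members more often than the product of the single shares gives. Among 327 cKO Foxp3-positive cells 180 held none, 96 held 1, 39 held 2, 11 held 3 and 1 held all 4. Thus 51 held at least 2, where the product gives 33.4. After thinning it was 27 of 321 cells against 15.02, and in agonist cells 17 of 411 against 4.70. No WT cell in any gate held 2 of the 4 genes, but the product gives only 0.50 such cells in the Foxp3-positive and 0.18 in the agonist gate, so nothing is read from this. The most frequent pairs in cKO Foxp3-positive cells were Gm19951 with Dapl1 alone (15 cells) and Gm19951 with Krt83 alone (11), while 85 cells held Gm19951 and no other member. Cfap53 stood without another member in 2 of its 22 cells. Within agonist cells with S1pr1 or Klf2 the thinned counts were 16 against 6.48, and within Foxp3-positive ones 25 against 13.5.

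Pooling both gates after thinning, Gm19951 was present in 61.9% (38.4 to 81.9) of the 21 Cfap53 cells and in 16.7% (14.1 to 19.7) of the others. It was present in 63.6% of Krt83 cells against 15.9%, and in 42.4% of Dapl1 cells against 16.9%. In the pooled cells Cfap53 and Dapl1 were the pair whose intervals overlap: 9.52% (1.17 to 30.4) of Cfap53 cells held Dapl1, against 4.36% (2.98 to 6.13). The 2 gates differ in their share of Gm19951, so each was also read alone. Among agonist cells 6 of 7 with Cfap53 (85.7%, 42.1 to 99.6) held Gm19951 against 11.1% (8.24 to 14.6) of the others. In the Foxp3-positive gate it was 7 of 14 (an interval of 23.0% to 77.0%) against 24.1% (19.4 to 29.3), and these intervals overlap. Those of Dapl1 cells overlapped as well: 41.7% (22.1 to 63.4) held Gm19951 against 23.9% (19.2 to 29.2) in the Foxp3-positive gate and 44.4% (13.7 to 78.8) against 11.7% (8.72 to 15.2) in the agonist gate. Krt83 cells were apart from the others in each gate, with Gm19951 in 68.8% (41.3 to 89.0) against 23.0% (18.4 to 28.1) of Foxp3-positive and in 58.8% (32.9 to 81.6) against 10.4% (7.57 to 13.9) of agonist cells. In the Foxp3-positive gate the pairs of Krt83 with Cfap53 (21.4%, 4.66 to 50.8, against 4.23%, 2.27 to 7.13) and with Dapl1 (4 of 16 cells, 7.27% to 52.4%, against 6.56%, 4.05 to 9.95) overlapped. In each of the lowest, middle and highest depth groups of either gate, cells with at least 2 members were more numerous than the product, for example 14 against 8.61 in the shallowest Foxp3-positive group and 28 against 20.5 in the deepest. Whether the genes share a cause was not tested.

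**Figure D3:**
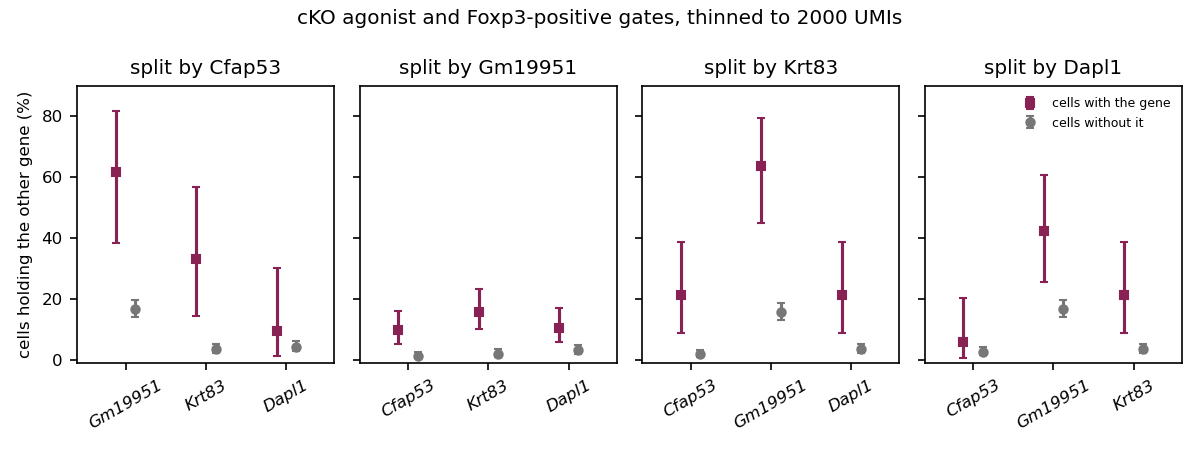
Share of cKO agonist and Foxp3-positive cells (percent, thinned to 2000 UMIs) that hold a second gene, among cells with (purple squares) and without (grey circles) the gene named above each panel; bars are 95% exact binomial intervals. In the 2 gates pooled, the intervals are apart in every pair except Cfap53 with Dapl1, and within the Foxp3-positive gate alone several of them overlap.

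Genes of the silencing machinery differed little between the libraries, except 2. Of 20 listed, 19 had at least 20 UMIs in the Foxp3-positive gate, 2 were at least 2-fold higher in cKO (background 0.566% of genes), none at least 2-fold lower (background 0.651% of genes), and the median log2 fold was 0.06. These 2 were Resf1, a partner of SETDB1 in silencing retroviral elements (148 to 805 CPM), and Atf7ip (104 to 222 CPM). Both had been chosen from the same contrast as the members. Within cKO, Resf1 went with the members. Foxp3-positive cells with a member had 1634 CPM (1463 to 1818) and those without 764 (684 to 850), and agonist cells 1575 (1362 to 1812) against 215 (182 to 252).

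Resf1 also went with the number of members per cell: agonist cells had 215 CPM at 0 members, 1179 at 1 and 2625 at 2 or more, against 103 in WT agonist cells. For Foxp3-positive cells the values were 764, 1429 and 2210, against 183 in WT. The WT cells of both gates were thinned as well. Ddt, a relative of the cytokine MIF, and Gstt2, a glutathione transferase, had been chosen from the same contrast as well. They were higher too in agonist cells with a member, at 452 against 138 CPM and 218 against 41.5. For Ddt, agonist cells with 1 member had 211 CPM (127 to 330) and those with none 138 (111 to 168), and these intervals overlap. The 17 agonist cells with at least 2 members had 1091 CPM (768 to 1504). Atf7ip was less different: 307 (217 to 421) against 201 (169 to 237) in agonist cells, where the intervals overlap, and 355 (278 to 446) against 227 (184.5 to 276) in Foxp3-positive cells, where they do not. Foxp3-positive cells with at least 2 members had 538.5 CPM of it. All 14 Foxp3-positive and all 7 agonist cells with Cfap53 held Resf1. As Resf1 also stood at 764 and 215 CPM in cells of these gates with no member, nothing is read from these counts.

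**Figure D4:**
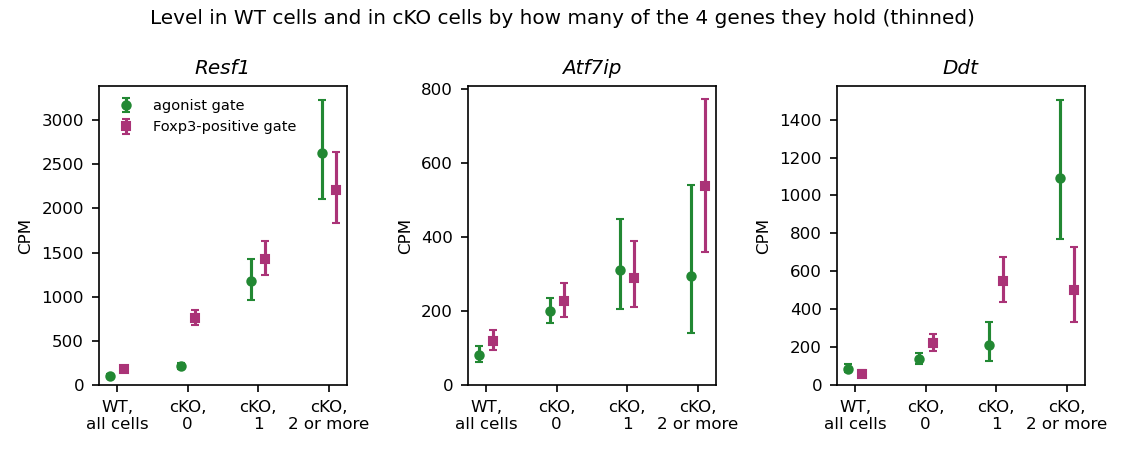
Level (CPM, thinned cells) of Resf1, Atf7ip and Ddt in WT cells and in cKO cells that hold 0, 1 or at least 2 of the 4 genes, in the agonist (circles) and Foxp3-positive (squares) gates; bars are 95% Poisson intervals. Resf1 goes from 215 to 2625 CPM in cKO agonist cells.

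Other gene groups separated cells with and without a member only in part. A gene was counted as higher or lower when the 95% interval of its ratio excluded 1, and CPM here are again those of thinned cells. In agonist cells S1pr1 was at 153 CPM with a member and 50.1 without (ratio 3.06, 1.65 to 5.50), and Il7r, the receptor for a survival cytokine, at 145 and 58.7 CPM. Dntt, which adds bases at V(D)J joints in DP cells, was at 8.1 against 228 CPM there. The 10 Treg genes summed to 2633 CPM in agonist cells with a member and 2292 in those without. Of the 8 with at least 20 UMIs, 3 were higher and 1 lower. Split by Cfap53, held by 7 agonist cells, the sums were 4016 against 2315 CPM. They were 2474 against 2325 by Gm19951, 2741 against 2326 by Krt83 and 2728 against 2335 by Dapl1. In the Foxp3-positive gate S1pr1 was not higher with a member (209 against 259 CPM, ratio 0.807, 0.554 to 1.155), whereas Il7r was (219 against 98.6 CPM, ratio 2.22, 1.43 to 3.45). Ccl5, a chemokine, was 185 against 36.7 CPM and Tnfrsf4, a costimulatory receptor, 695 against 1076 CPM. The list of innate and cytotoxic lymphocyte genes, which holds Ccl5, was at 355 CPM in Foxp3-positive cells with a member and 156 in those without, with both measured genes (Ccl5 and Nkg7) higher. It was at 815 against 189 CPM when split by Krt83, 752 against 177 by Dapl1, 303 against 192 by Gm19951 and 179 against 222 by Cfap53, and at 631 CPM in cells with at least 2 members. In agonist cells it was 258.5 against 232 CPM. Its part in the result was not tested. Split by any member, B cell, myeloid and epithelial lists stayed at or below 48.6 CPM in both kinds of Foxp3-positive cells. The epithelial list was at 48.6 CPM with a member and 16.1 without. It was at 107 against 22.8 CPM by Cfap53, 62.6 against 23.6 by Dapl1, 43.3 against 20.8 by Gm19951 and 31.3 against 26.2 by Krt83. No gene of it had 20 UMIs in these cells.

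Krt83 also occurred outside the selected gates, where the list of innate and cytotoxic lymphocyte genes was higher in sum but not in every gene. In WT, 6 ungated cells held 10 UMIs, with the list at 2464 CPM against 1620 in the other 177. Rora was in 4 of the 6 and 14 of the 177, and Tyrobp in 0 and 26. In cKO 10 ungated cells held 15 UMIs, with the list at 1980 against 1383 CPM. Rora was in 8 of the 10 and 14 of the other 194, whereas Fcer1g and Tyrobp were in 0 of the 10 and in 22 and 28 of the 194. In cKO DN cells, 13 held Krt83, and their summed level of the 8 innate and cytotoxic lymphocyte genes was 1804 CPM against 485 in the others. The part of such cells in the Krt83 result was not tested.

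The neighbouring genes that could be measured were mostly level. Of the 10 nearest genes of each member, 4 for Cfap53, 4 for Gm19951, 6 for Dapl1 and 0 for Krt83 had at least 20 UMIs in the Foxp3-positive gate. Those of Dapl1 lay between -0.42 and 0.66 in log2 fold and those of Gm19951 between -0.24 and 0.43. As 9 of 10 Krt83 neighbours had no UMI, no level can be given for them. Of 49 keratins, 40 had no UMI in the Foxp3-positive gate and 2 had at least 20, of which 1, the member Krt83, was at least 2-fold higher. Of 31 Cfap genes 16 had none and 6 had at least 20, of which 1, the member Cfap53, was at least 2-fold higher. Among all genes 0.566% were. As both members were chosen from this contrast, nothing is read from these counts. Of 15 germline genes 13 had no UMI. The exception among the 4 measured neighbours of Cfap53 was Mbd1, which encodes a methyl-CpG binding protein and lies next to Cfap53. It had 58 UMIs in WT and 129 in cKO Foxp3-positive cells (log2 fold 1.19). In thinned cKO Foxp3-positive cells with Cfap53 it was at 286.5 CPM (124 to 565), against 45.6 (30.3 to 65.9) without, but it was also at 250.7 CPM (108 to 494) in Krt83 cells.

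Genes with the most similar levels over the 12 points (6 gates in 2 libraries) were ranked by Pearson's r among 12469 genes. This is a description, since most points lie near 0 and cKO Foxp3-positive cells set most of the correlation. Cited4 (r = 0.961), Gm36161, Gm21188, Gm29243 and Vmn2r97 were most like Cfap53, and Vmn2r96 (r = 0.992), Olfr373, Gm49795, M1ap and Iqcg most like Gm19951. Krt83 was most like Abca5 (r = 0.973) and then Dapl1 (r = 0.970), with Olfr372, Lcn10 and Yes1 next. Dapl1 was most like Gm26771 (r = 0.971), then Krt83, Yes1, Gm20275 and Lcn10. Of these, Cited4 had 2 UMIs in WT and 90 in cKO Foxp3-positive cells, Gm21188 1 and 60, Gm29243 3 and 55, Olfr373 2 and 48 and Gm49795 0 and 47, the other 5 genes that passed the switched-on rule.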

How the data were processed

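The values are whole-number UMI counts of 1 gene in 1 barcode, as the authors deposited them. Cell Ranger 6.1.1 wrote them, per the file headers, and CASAVA 1.8 and Seurat 4.0.3 also stand in the submitters' processing notes. No source used here gives the genome build, and coordinates are those of the RefSeq promoter table. A barcode was kept with 500 or more genes, 1000 or more UMIs and no more than 10% of UMIs from mitochondrial genes. Doublets were scored with scrublet in scanpy 1.11.5; the automatic threshold failed in cKO (1 call), so the WT threshold of 0.29 was used for both, removing 148 WT and 129 cKO barcodes. Before filtering, WT had 7852 barcodes (89370968 UMIs) and cKO 8461 (76668166 UMIs).

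Cells were gated on raw UMIs, first match first: other cell types, Foxp3-positive, DN, agonist (at least 3 of 8 genes and Trac), mature, post-selection, DP. UMIs were summed per gate and library and scaled to CPM. A log2 fold compares cKO with WT after 5 CPM was added to each, and ratios add nothing. Intervals are exact Poisson, Clopper-Pearson or binomial. Shares use cells thinned to 2000 UMIs, and so do the CPM of agonist and Foxp3-positive cells split by the members they hold. Everything ran in Python 3.11.15 with scipy 1.17.1 and was tested on simulated data. Named genes are the 4 members, genes past the switched-on rule, the 5 most like each member, their 5 nearest genes on each side, and fixed lists; the members, lists and gates were chosen with earlier results of these data known. The split of DN cells and the agonist alternatives were added after the data were seen. One item, with the results that need it, is not reported here.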

Additional observations from a re-analysis of the deposited data

How the results depend on the processing

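The folds and shares of the 4 genes were recomputed with a stricter cell filter (at least 1000 genes, 2000 UMIs, at most 5% mitochondrial UMIs), doublets kept, gates on thinned counts, at least 2 Foxp3 UMIs, mean per-cell CPM, a pseudocount of 1 CPM, thinning to 3000 UMIs, the share expected over all thinnings, no minimum of UMIs per gene, a 2-fold rule, or at least 2 UMIs per positive cell. All 48 alternative values of the 8 folds in the agonist and Foxp3-positive gates stayed above 0, and 34 lay within the counting interval of the reported fold. As the members were chosen from the Foxp3-positive contrast, the sign of their folds there is not read as a result. In the Foxp3-positive gate, the log2 fold of Cfap53 was 4.37 with at least 2 Foxp3 UMIs and 5.85 with a pseudocount of 1, against 3.95. That of Gm19951 was 5.45 from mean per-cell CPM and 6.51 with a pseudocount of 1, against 5.01. The number of switched-on genes was 19 with gates on thinned counts, 19 with a pseudocount of 1 and 29 at 2-fold, against 7. The share with Cfap53 was 2.06% under the stricter filter, that with Gm19951 30.5% at 3000 UMIs and 13.7% at 2 UMIs per cell, and that with Krt83 2.18% at 2 UMIs per cell. In the agonist gate the alternative log2 folds of Cfap53 ran from 2.05 to 4.39, against 2.15, and those of Gm19951 from 3.21 to 5.33, against 3.435. Those of Krt83 ran from 1.52 to 2.36, against 1.58. Those of Dapl1 ran from 0.96, under the stricter filter, to 2.66, against 1.81. The agonist share with Cfap53 was 4.29%, with Gm19951 18.1% and with at least 2 members 7.14% with gates on thinned counts, against 1.70%, 12.4% and 4.14%. That with Krt83 was 0.73% and with Gm19951 6.08% at 2 UMIs per cell, and that with Dapl1 0.93% under the stricter filter, against 2.19%. In the agonist gate 9 genes were switched on with gates on thinned counts, 18 with a pseudocount of 1 and 19 at 2-fold, against 2. The cause of these moves was not tested. No paired analysis was possible because each genotype has 1 library. Without replicates, depth and differences between mice, enrichments and captures cannot be told apart from genotype.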

Other observations

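Receptor gene families of sensory neurons held a few genes with the same pattern, looked at after their values were seen. Of 1138 odorant receptor genes (Olfr), 1115 had no UMI in the Foxp3-positive gate, and 2 had at least 20 UMIs over both libraries. Olfr373 was at 0.74 CPM in WT and 20.6 in cKO, and Olfr372 at 1.11 and 11.2. Of 121 vomeronasal type 2 receptor genes (Vmn2r), 115 had no UMI there and 2 had at least 20. Vmn2r96 was at 1.85 and 22.3 CPM, and Vmn2r97 at 0.74 and 13.3. These 4 genes reached 20 UMIs through the cKO library, so their direction was nearly fixed by that limit and is not read as a result. In the agonist gate 1 of the 2 genes of each family with at least 20 UMIs was at least 2-fold higher in cKO. The family sums there were 61 UMIs in WT and 92 in cKO for Olfr, and 9 and 100 for Vmn2r. The share of all genes at 2-fold is not given for that gate, so nothing is read from this count.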
